A study of Mus musculus with 6 samples.

Results

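Late in the numbering of mouse microRNAs (miRNAs) stand many entries that were added to the registry from deep sequencing, and 91 of those between miR-1800 and miR-6895 gave a signal in Hepa1-6 tumours. The array carried 419 entries of this number range. An entry was counted as detected when at least 1 of its probes was well above background on over 0.5 of its usable spots on at least 1 of 6 arrays. The members were thus chosen by their detection flags in these samples. miR-3963, miR-5100 and miR-6366 were left out by name. The other 328 entries of the range were detected on no array. Over all numbers, 498 of the 1881 miRNAs on the array were detected.

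The arrays came from tumours of C57BL/6 mice inoculated in the right flank with Hepa1-6, a mouse hepatoma line grown in culture. In the GLE group, 3 mice received GLE, an abbreviation left unexplained in the labels, with the daily dose set to 0.023 g for 10 g of body weight. In the model group, 3 mice bearing the same tumours received 0.2 ml of 0.9% NaCl daily for 28 days. The age field reads 28 d for every mouse, each tumour had its own array, and no tumour-free mice were analysed here.

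MiRNAs are short RNAs that guide Argonaute proteins to messenger RNAs through their seed, bases 2 to 8 from the 5′ end. In the usual route, Drosha and Dicer cut them from a hairpin, which leaves a 5p and a 3p arm. Registry entries with high numbers are on the whole less abundant and less conserved than the early families. Some of them overlap repeats, small nucleolar RNAs or transfer RNA fragments.

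All signals below are log2 values after each array was divided by its own 75th percentile over the 636 probes detected on every array. A signal of 0 is therefore that percentile, each unit is a factor of 2, and values stop at a floor of −4.26. Differences are GLE minus model on this log2 scale.

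Mature sequences were taken from RefSeq for the 77 members that matched by name, with positions on GRCm38.p6. Those of the brightest members are shown first, with the seed in capitals, because they differ so widely in base composition:
miR-3473b: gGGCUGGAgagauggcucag
miR-5126: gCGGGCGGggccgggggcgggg
miR-3968: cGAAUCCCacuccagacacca
miR-6368: cUGGGAAGcaguggaggggag
miR-6769b-5p: cCUGGUGGguggggaagagc
miR-3473g: cAAAAGUGaggcuggggaga
miR-3102-5p: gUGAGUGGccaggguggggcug
miR-5622-3p: cUUAGCUGgguagugguggugc

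miR-5126 lies at chr1:84695890-84695911 (+) within the span of Dner, and miR-3473b at chr10:41670774-41670793 (+) within Ccdc162. miR-3968 lies at chr11:115447969-115447989 (-) within Trim80, and miR-6368 at chr13:28710796-28710816 (-) within a long non-coding RNA gene. Of the 77 members with a position, 69 lay inside the span of an annotated gene on either strand, and for 58 of these a protein-coding gene was among them. The gene table gives spans only, so exons and introns were not told apart.

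The next set holds the members that the group comparison turns on, by smallest p in each direction. With them stand miR-3069-3p, in the span of Scarna13 and Snhg10, and miR-6516-3p, in that of Snhg20:
miR-1839-5p: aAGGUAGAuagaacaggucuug
miR-5121: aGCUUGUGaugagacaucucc
miR-1934-3p: aGGAUGACgguggggcugguga
miR-1947-3p: gCACUGAGcuagcucucccucc
miR-2137: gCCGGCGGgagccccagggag
miR-6238: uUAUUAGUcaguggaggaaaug
miR-3069-3p: uUGGACACuaaguacugccaca
miR-6516-3p: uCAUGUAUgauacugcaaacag

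The members reached far up the signal range, but most were dim. Across the 91 members the median signal was −2.94, with quartiles of −3.75 and −1.42. For the 292 detected entries numbered under 1800 or named let-7 the median was −2.80, and for the 77 detected entries numbered miR-6896 to miR-7118 it was −3.46. Detection chose all of these entries, so the levels are a description without a test. Only 11 members had a mean above 0, and 40 lay within 1 unit of the floor. Among all detected miRNAs, 6 members ranked in the top 50 and 16 in the top 100.

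A few members carried most of the signal of the set. Over the probes detected on every array, the members together gave 5.69%, 5.67% and 6.30% of the summed signal on GLE replicates 1 to 3 and 6.39%, 7.18% and 5.84% on model replicates 1 to 3. The 10 brightest members made up 70.1% to 75.1% of that share. Probe affinity differs between sequences, so signals of different miRNAs are not amounts of RNA.

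The brightest was miR-3473b, whose letters resemble the start of the mouse B2 repeat. It read 2.49, 3.20 and 2.44 on the GLE arrays and 3.29, 3.63 and 2.45 on the model arrays, rank 12 of all detected miRNAs. The groups overlapped, and each held at least 1 array near the lowest value. miR-5126, in which every base is G or C, read 2.87, 2.43 and 3.45 against 2.62, 3.05 and 2.86, and ranked 13. Its highest and its lowest value both came from GLE mice.

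miR-3960, known with miR-2861 as a pair from osteoblast differentiation, was the third brightest. It read 2.57, 2.33 and 2.81 in GLE and 2.53, 2.97 and 2.61 in model tumours. Its partner miR-2861 was far dimmer at −0.50, −0.55 and −0.40 against −0.47, −0.01 and −0.45. In both miRNAs the highest array was model replicate 2, and the groups overlapped. Their differences were −0.13 ± 0.21 (SE) for miR-3960 and −0.18 ± 0.19 (SE) for miR-2861, neither past the threshold of adjusted p under 0.05 (limma).

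The remaining bright members varied in how closely the 6 arrays agreed. miR-6368 was steady at 1.48, 1.59 and 1.43 against 1.36, 1.54 and 1.73, and so was miR-3473g at 0.68, 0.85 and 0.69 against 0.68, 0.80 and 0.87. miR-1949 read 1.47, 1.60 and 0.48 against 1.61, 1.53 and 1.45, so that GLE replicate 3 stood apart from the other 5 arrays. miR-5622-3p read 0.27, −0.64 and 0.93 against −0.11, 0.16 and −0.10, with GLE tumours at both ends. miR-6769b-5p (0.74, 0.33 and 1.12 against 0.74, 1.04 and 0.72) and miR-3102-5p (0.63, 0.26 and 1.18 against 0.29, 0.61 and 0.52) had the same GLE order.

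**Figure D1:**
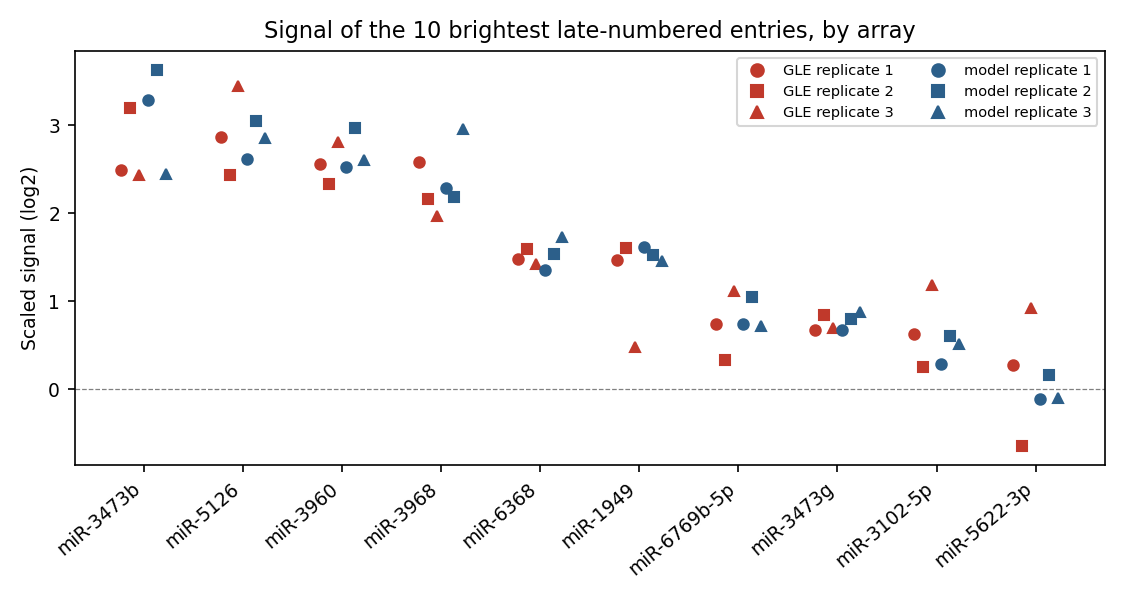
Scaled log2 signal of the 10 brightest late-numbered entries on each of the 6 arrays; red symbols are GLE and blue symbols model arrays, and shapes mark the replicate number. The dashed line is the 75th percentile of each array. In each of the 10 entries the groups overlap, from 3.63 for miR-3473b on model replicate 2 down to −0.64 for miR-5622-3p on GLE replicate 2.

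Detected and undetected entries of the range differed in base composition. G made up a median of 40.9% of the mature sequence in the 77 members with a sequence, against 27.3% in the 284 undetected entries of the same range with one. GC content was 63.6% against 52.2%. A run of GGGG stood in 20 of the 77 members (26.0%), in 8.10% of the undetected entries and in 11.2% of all 1679 mouse mature sequences in the table, searched on the strand as written. Among the 69 detected entries numbered miR-6896 to miR-7118 with a sequence the share was 34.8%. Among the 240 detected entries under 1800 or named let-7 with a sequence it was 9.58%. Within the members, brightness and G content went together with a Spearman correlation of 0.42 (n = 77 members, which share arrays and base composition), given as a description.

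**Figure D2:**
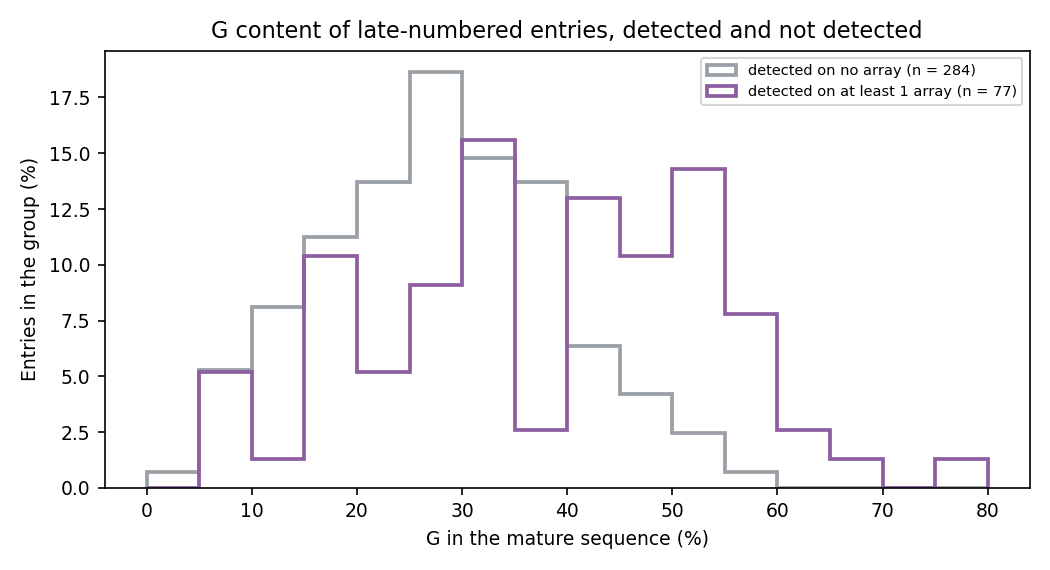
Share of entries (%) by the percentage of G in the mature sequence, for 77 detected and 284 undetected late-numbered entries with a RefSeq sequence. The detected entries extend further to the right, with medians of 40.9% and 27.3%.

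Most members were detected on every array, while the spots of a probe scattered more than in the early families. Of the 91 members, 69 (75.8%) were detected on all 6 arrays, against 70.2% of the entries under 1800 with let-7 and 63.6% of the entries numbered miR-6896 to miR-7118. Another 16 members were detected on 2 to 5 arrays and 6 on 1 array. The coefficient of variation (CV) between spots of a probe had a median of 14.0% in the 75 members that could be tested, against 8.05% in the 228 tested entries under 1800 with let-7 and 14.2% in the 56 from miR-6896 on.

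Spots scattered less at higher signals, and members had the higher CV on both sides of a signal of −2. Above it the median CV was 8.44% for 35 members and 4.20% for 117 early entries, with median signals of −0.78 and −0.10. At or below it the CV was 18.1% for 40 members and 13.5% for 111 early entries, with median signals of −3.29 and −3.18. The CV exceeded 20% in 13 of the 75 tested members. Most of these were dim, such as miR-3965 with a CV of 59.1% close to the floor, but miR-5122 (43.9% at a mean of −0.34) and miR-6412 (24.6% at a mean of −0.07) were not. Both were singled out after their values were seen.

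**Figure D3:**
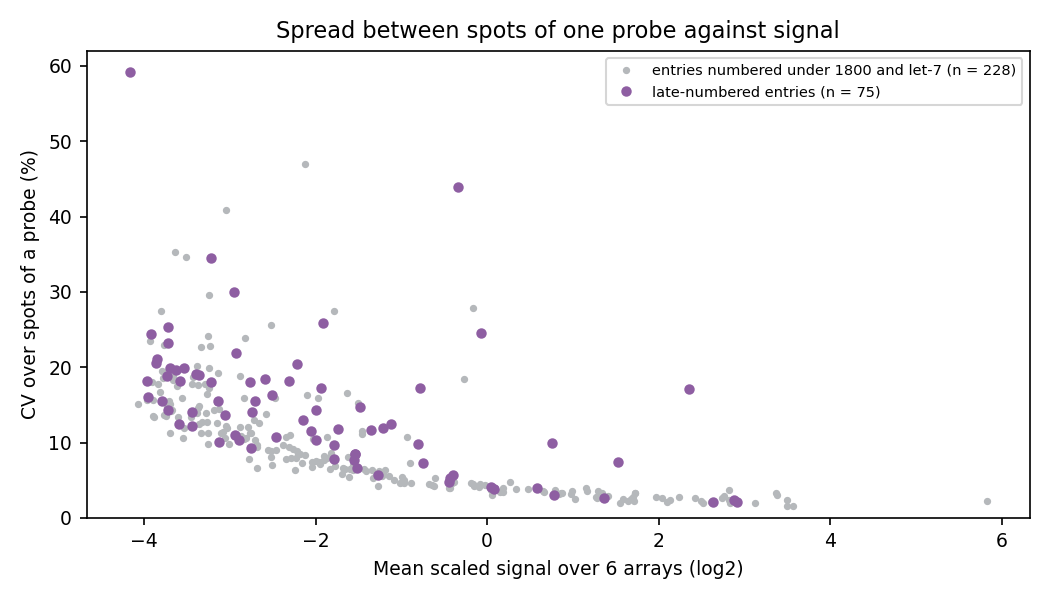
CV (%) over the spots of a probe against the mean log2 signal of the miRNA over 6 arrays, for 75 tested late-numbered entries and 228 tested entries numbered under 1800 or let-7. Scatter shrinks toward high signals in both sets, and miR-5122 stands out at 43.9%.

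Different probes for one miRNA gave nearly the same comparison. Of the 75 tested members, 59 had more than 1 probe in use, and the probes' differences between groups lay a median of 0.042 apart, against 0.048 in other tested miRNAs. The widest gap was 0.25, in miR-5131. In 4 of the 59 (6.78%) the probes had opposite signs, against 11.5% of the other tested miRNAs with several probes. These were miR-1892, miR-1906, miR-5131 and miR-6368, whose differences lay between −0.07 and 0.03. Where they carry a position in the file, probes do so on mm9, and only 16 members had such a probe. Members with several mapped probes had them at the same end position and neighbouring start positions. For miR-1947-3p these were chr16:33105505-33105518 and chr16:33105506-33105518. Agreement between probes so alike says little about reliability.

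The members at the edge of detection were close to the floor. Just inside the rule, miR-6418-5p had 9 of 15 spots (60.0%) well above background on GLE replicate 3, and miR-6546-3p had 9 of 15 (60.0%) on GLE replicate 2. miR-1971 followed with 10 of 15 (66.7%) on GLE replicate 2. Just outside, miR-3070-2-3p, miR-3099-3p and miR-3113-5p reached 40% at most. Mean spot signals at these points were 14.2 to 15.9 intensity units inside and 11.9 to 13.7 outside, so the rule divides entries of nearly equal signal.

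In all, 16 members could not be tested because no probe was detected on all arrays of a group, and their means lay between −4.26 and −3.76. Of them, 6 were detected in only 1 group and on 1 array: miR-1931 on model replicate 3, miR-3572-5p, miR-5046 and miR-6418-5p on GLE replicate 3, and miR-1971 and miR-6546-3p on GLE replicate 2. In the group with the detection, the mean of each of these 6 lay between −4.26 and −4.10, at or close to the floor, so no fold is given.

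GLE against model tumours gave no difference past the threshold in any tested member. Called were 0 of 75 members, as against 0 of 388 tested miRNAs (0.0%; limma, Benjamini-Hochberg adjusted p under 0.05 over all 388). At an unadjusted p under 0.05, 0 members and 6 of the 388 miRNAs (1.55%) were found. The differences ran from −0.41 to 0.48, and 0 members exceeded 0.5 in size, which 42 of the 388 did. The median standard error was 0.24. The 95% interval of a difference, not adjusted for the 388 tests, reached a median of 0.56 to either side. Differences smaller than about that were not detectable in most members, and the adjusted threshold asked for larger ones still. Of the 75, 6 had been detected on all arrays of only 1 group. GLE replicate 2 bore on this count: without it, 15 members and 107 of all tested miRNAs had an unadjusted p under 0.05, and 2 miRNAs but 0 members passed the adjusted threshold.

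Direction was mixed, with 32 positive and 43 negative differences. The positive share was 42.7%, against 51.0% of all 388 miRNAs, and the median difference was −0.05 against 0.01. The split moved with the scaling: 22 of 75 (29.3%) were positive with the percentile taken over all probes or with quantile normalisation, 23 (30.7%) with the authors' deposited values, and 43 (57.3%) without scaling. Without GLE replicate 3 only 19 were positive.

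Few members had groups without overlap. GLE lay above model on every array in 1 of the 75 members (1.33%; 4.64% of all 388), and model above GLE in 2 (2.67%; 2.06% of all 388).

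**Figure D4:**
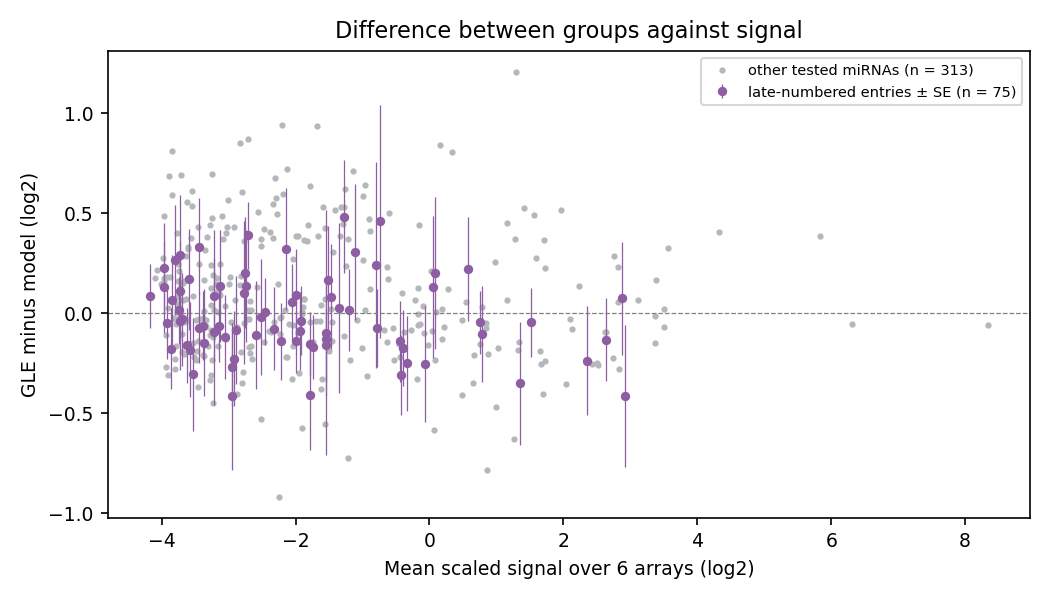
GLE minus model (log2) against mean signal over 6 arrays for 75 tested late-numbered entries, with bars of 1 SE, and for 313 other tested miRNAs. The late-numbered entries stay between −0.41 and 0.48.

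miR-1839-5p had the smallest p of the members. miR-1839 comes from a hairpin within a small Cajal body RNA, a class that guides modification of splicing RNAs. The 5p arm read −2.48, −2.68 and −2.37 in GLE tumours and −2.77, −2.96 and −2.97 in model tumours, so that all GLE arrays were above all model arrays. The difference was 0.39 ± 0.17 (SE, 3 mice a group), or 1.31-fold, with an adjusted p of 0.937 (limma). It shrank to 0.12 with normexp background correction and to 0.20 when the probes detected on only some arrays were averaged in. The opposite arm, miR-1839-3p, read −1.94, −1.0 and −1.90 against −1.36, −1.65 and −1.45, with the highest value and the lowest both in GLE. Its difference was −0.13 ± 0.28 (SE), with adjusted p = 0.951 (limma). The arms thus gave differences of opposite sign, neither past the threshold.

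miR-5121 had the largest positive difference. It lies at chr7:45126925-45126945 (-), inside Snord33, a small nucleolar RNA in an intron of the ribosomal protein gene Rpl13a. It read −1.16, −1.10 and −0.83 in GLE and −0.95, −1.61 and −1.98 in model tumours. GLE arrays were close together, and model replicate 1 lay among them. The difference was 0.48 ± 0.28 (SE; adjusted p = 0.937, limma), and 0.25 without model replicate 3. Next by p came miR-5620-3p (0.33 ± 0.24), miR-1934-3p (0.32 ± 0.31) and miR-1947-3p (0.22 ± 0.23, SE throughout), in which the groups overlapped.

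Other members tied to small nucleolar or Cajal body RNA genes, or to their host genes, had differences of either sign. Of the miR-1839 arms above, 5p was positive at 0.39 and 3p negative at −0.13. miR-6516-3p, in the span of the host gene Snhg20, read −2.99, −2.48 and −3.98 against −2.61, −2.73 and −2.87. miR-3069-3p, in the span of Scarna13 and its host Snhg10, read −3.26, −3.66 and −4.09 against −3.37, −3.53 and −3.56. In both, GLE replicate 3 was the lowest array, and the differences were −0.41 ± 0.37 and −0.18 ± 0.24 (SE). Both miR-6516-3p and miR-3069-3p were chosen after their values were seen.

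miR-2137 had the smallest p among the negative differences. It read −0.63, −0.53 and −0.59 in GLE and −0.42, 0.09 and −0.49 in model tumours, with all model arrays above all GLE arrays. The model mean was raised most by replicate 2. The difference was −0.31 ± 0.20 (SE; adjusted p = 0.937, limma), and −0.13 without model replicate 2. miR-3081-5p, the other member without overlap and named for that after its values were seen, read −1.90, −1.79 and −1.77 against −1.72, −1.50 and −1.73, a difference of −0.17 ± 0.16 (SE).

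The next members by p with negative differences were miR-3473a, miR-6238, miR-3473b and miR-1949. miR-6238 read −3.07, −3.31 and −2.89 in GLE and −2.64, −2.77 and −3.04 in model tumours, a difference of −0.27 ± 0.19 (SE). Its spots scattered with a CV of 30.0%. For miR-1949 the difference of −0.35 ± 0.31 (SE) came from GLE replicate 3, and without it the value was 0.00188.

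The miR-3473 letters share stretches of sequence but not one profile. On the array were 7 of them, of which 6 were detected and tested, and miR-3473d was detected on 0 arrays. They are shown with miR-5128 because it holds the same run of letters, with the seed in capitals:
miR-3473a: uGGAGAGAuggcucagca
miR-3473b: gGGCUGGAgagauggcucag
miR-3473e: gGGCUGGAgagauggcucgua
miR-3473f: cAAAUAGGacuggagagaug
miR-3473c: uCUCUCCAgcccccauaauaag
miR-5128: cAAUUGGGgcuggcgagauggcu

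The run GAGAUGGCU, searched on the strand as written, stood in miR-3473a, miR-3473b, miR-3473e and miR-5128, and in no other of the 1679 mature sequences (4 of 1679, 0.238%). miR-3473b and miR-3473e also share the seed GGCUGGA and differ only toward the 3′ end. Whether the probes tell such entries apart was not tested.

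Despite the shared letters their signals lay far apart. miR-3473a read −2.21, −1.48 and −2.28 in GLE and −1.47, −1.34 and −1.93 in model tumours, in nearly the order of miR-3473b. In both, model replicate 2 was highest and GLE replicate 3 lowest. The difference was −0.41 ± 0.28 for miR-3473a and −0.41 ± 0.35 for miR-3473b (SE, adjusted p = 0.937 for both, limma), and the latter was −0.16 without model replicate 2. miR-3473e stayed between −2.60 and −2.33 on all 6 arrays, a difference of 0.01 ± 0.17 (SE) whose sign turned under several settings. miR-5128 read −1.29, −2.0 and −1.02 against −1.71, −1.43 and −1.65, with GLE replicate 2 lowest where miR-3473a and miR-3473b had one of their higher values.

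The other letters were dimmer or flat. miR-3473f ran from −3.61 to −3.17 and miR-3473c from the floor of −4.26 on GLE replicate 2 to −3.29 on GLE replicate 3. Their differences were −0.07 ± 0.18 and 0.26 ± 0.27 (SE). Over the 6 tested letters, 2 differences were positive and 4 negative, and 0 were called. The signs of miR-3473e, miR-3473f and miR-3473g turned under at least 1 other scaling. miR-3470a, another entry with a repeat-like sequence, read −2.78, −3.02 and −2.17 against −2.78, −3.21 and −2.57, a difference of 0.20 ± 0.28 (SE).

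A second seed was shared by miR-6368 and miR-3547-5p, whose seed is UGGGAAG. miR-3547-5p was dimmer by far, at −3.07, −3.30 and −2.98 against −3.14, −2.65 and −3.21, and its difference of −0.12 ± 0.21 (SE) did not pass the threshold. The difference of miR-6368 was −0.05 ± 0.17 (SE). No other seed occurred in more than 1 member with a sequence.

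Several products of one hairpin were detected in 5 cases, 11 entries in all. The widest step was in miR-3102, a hairpin within the span of Arhgef17 from which adjoining products are registered. miR-3102-5p had a mean of 0.58, and the adjoining miR-3102-5p.2-5p read between −2.46 and −1.99. miR-3102-3p.2-3p was detected on 2 GLE arrays and 1 model array, and its values were at the floor in all model tumours. In miR-1897 the 5p arm ran from −1.83 to 0.35 over the arrays, while the 3p arm stayed between −4.04 and −3.39. The arms of miR-3058 and of miR-3620 were all dim, between −4.07 and −2.62.

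The members that varied most within a group were miR-5099, miR-1897-5p and miR-3082-5p. miR-5099 read −1.55, −2.92 and −0.29 in GLE tumours, an SD of 1.32, and −1.82, −1.10 and −1.56 in model tumours, an SD of 0.36. miR-1897-5p read −0.55, −1.83 and 0.35 in GLE, an SD of 1.09, and −1.27, −0.74 and −0.75 in model tumours, an SD of 0.30. In both, GLE replicate 3 was the highest array and GLE replicate 2 the lowest. miR-3082-5p, whose sequence gACAGAGUgugugugucugugu is mostly G and U past its seed, went another way. It read −1.19, 0.36 and −0.70 in GLE and 0.12, −1.91 and −1.13 in model tumours, with SDs of 0.79 and 1.02, and its highest array was GLE replicate 2.

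In most members the SD within the group was larger on the GLE arrays than on the model arrays. The median SD of the 75 tested members was 0.36 in GLE and 0.18 in model tumours, and the GLE SD was the larger in 49 members (65.3%), against 76.5% of all 388 miRNAs. Over all 388 the median SDs were 0.33 in GLE and 0.17 in model tumours. An SD over 0.5 was found in 21 members for GLE and in 4 for model. All members were read on the same few arrays, so these counts are not independent and are given as a description. The order of the GLE arrays, given below, moved with the scaling. Whether scatter between mice differed between the groups was not tested.

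The arrays of the GLE group were ordered alike in many members. GLE replicate 2 was the lowest of the 6 arrays in 49 of the 75 (65.3%), against 38.1% of all 388 miRNAs, 18.9% of those under 1800 with let-7 and 71.4% of those from miR-6896 on. GLE replicate 3 was the highest in 27 (36.0%), against 31.2% of all 388. It stood above GLE replicate 2 in 60 (80%), against 62.1% of all 388. The share was 50% of those under 1800 with let-7 and 78.6% of those from miR-6896 on. The members' median deviation from their own mean was 0.05, −0.26 and 0.17 on GLE replicates 1 to 3 and −0.09, 0.08 and 0.00126 on model replicates 1 to 3. For the early entries it was 0.07, −0.02 and 0.000521, then 0.01, −0.09 and −0.04.

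**Figure D5:**
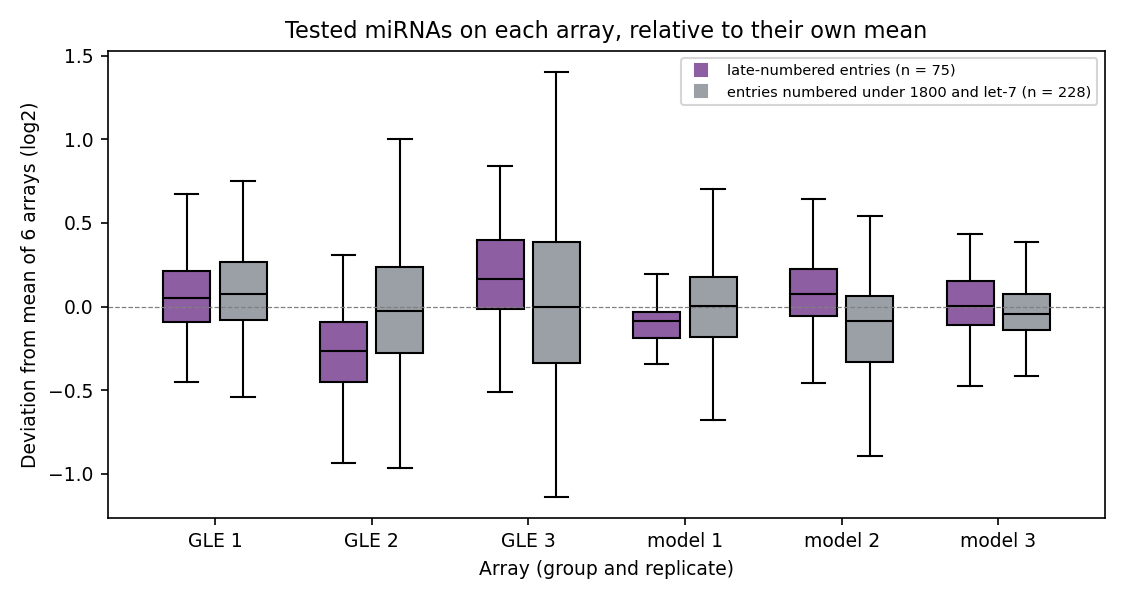
Deviation of each tested miRNA from its own mean over the 6 arrays (log2), by array, for 75 late-numbered entries and 228 entries numbered under 1800 or let-7. Boxes give the quartiles and median, and whiskers reach the last value within 1.5 times the box height. The box of the late-numbered entries lies lowest on GLE replicate 2, with a median of −0.26.

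That order moved with the scaling of the arrays. With the percentile over all probes GLE replicate 2 was lowest in 22 members, with quantile normalisation in 35, with the deposited values in 36, and with no scaling in 3. The 75th percentile used for scaling was 364 intensity units on GLE replicate 2, the highest of the 6, against 203 and 241 on GLE replicates 1 and 3 and 313, 231 and 211 on model replicates 1 to 3. The part of depth in the order was not tested. G content showed a Spearman correlation of 0.16 with the step from GLE replicate 2 to 3 over 63 tested members with a sequence, given as a description.

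Some members ran against it. GLE replicate 2 was the highest GLE array in 10 of the 75, namely miR-1839-3p, miR-1906, miR-1949, miR-2137, miR-3082-5p, miR-3473a, miR-3473b, miR-3473g, miR-6368 and miR-6516-3p. As the highest of all 6 arrays it stood in 4 members (5.33%), against 18.3% of all 388. The 4 fibroblast and smooth muscle markers, all detected, were summed on the linear scale as multiples of the 75th percentile. The sums were 4.74, 2.79 and 8.13 on GLE replicates 1 to 3 and 2.42 to 3.62 on the model arrays. The 3 hepatocyte markers summed to 0.30, 2.95 and 0.20 on the GLE arrays and 0.18 to 0.80 on the model arrays. Of these, miR-192-5p was detected on 6 arrays, miR-194-5p on 5 and miR-122-5p on only 2. The 4 markers of blood cell lineages, all detected, summed to 12.1, 7.30 and 17.0 on the GLE arrays and 6.00 to 9.60 on the model arrays. The 2 endothelial markers, with miR-126a-5p detected on only 3 arrays, summed to 7.70, 6.00 and 8.36 against 4.78 to 5.66. The 3 muscle markers, all detected, summed to 8.19, 2.43 and 2.40 against 1.48 to 3.56. Of the 3 epithelium and skin markers 2 were detected, neither of them tested, and the sums were 0.13, 0.17 and 0.15 against 0.10 to 0.34. Within the GLE group, replicate 2 was thus highest in the hepatocyte markers and, narrowly, in the epithelium and skin markers. It was lowest in the fibroblast and smooth muscle, blood cell and endothelial markers, in which replicate 3 was highest. The part of these markers in the members' order was not tested. In whole tumours, fewer cells of a type and less RNA per cell cannot be told apart.

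miR-3968, miR-5122 and miR-6412 followed another order, noticed after their values were seen. Their seeds differ, and are shown in capitals:
miR-5122: cCGCGGGAcccggggcugug
miR-6412: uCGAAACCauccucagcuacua
miR-3968, printed above, ends in CCA, as mature transfer RNAs do. So do 3 of the 77 members in all, with miR-3620-3p and miR-3102-3p.2-3p, and 1.37% of all mature sequences in the table. Those other members did not share the order of miR-3968, being highest on GLE replicate 1.

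All of these read highest on model replicate 3 and next on GLE replicate 1, and lowest on GLE replicate 3. miR-3968 read 2.58, 2.17 and 1.97 in GLE and 2.29, 2.18 and 2.96 in model tumours. miR-6412 read 0.14, −0.30 and −0.43 against −0.12, −0.31 and 0.62, and miR-5122 read −0.12, −0.46 and −0.82 against −0.30, −0.40 and 0.07. miR-451a, which marks erythrocytes, ran in the same order at the ends, with 3.36, 2.36 and 1.45 against 2.42, 1.98 and 3.55. The 3 erythrocyte markers, with miR-144-3p detected on only 4 arrays, summed to 6.03 to 22.3 in GLE and 8.69 to 25.4 in model tumours. Their part in these members was not tested. The differences were −0.24 ± 0.27 for miR-3968, −0.26 ± 0.29 for miR-6412 and −0.25 ± 0.24 for miR-5122 (SE), none past the threshold, and the spots of these probes scattered with CVs of 17.1%, 24.6% and 43.9%.

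Entries from the imprinted Dlk1-Dio3 region on mouse chromosome 12 were among the members too. miR-1906, in the span of Meg3, read −0.96, −0.50 and −1.0 against −0.83, −0.79 and −0.62. RefSeq lists 2 copies of miR-1906, of which only this one is placed here, so its signal cannot be assigned to either copy. miR-3072-5p, in the span of Mirg, read −1.94, −2.36 and −1.56 against −2.17, −1.98 and −1.97. miR-3544-3p, which lies within Rtl1, was detected on 3 arrays and not tested.

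Some members of middle or low signal lie within genes of known roles, and are named here after their values were seen. miR-6385, in the span of Pml, whose protein forms nuclear bodies, read −2.07, −2.10 and −1.77 in GLE and −2.01, −1.61 and −2.05 in model tumours. miR-1982-5p, in that of Oaz1, an inhibitor of polyamine synthesis, read −0.98, −1.65 and −0.28 against −1.46, −1.16 and −1.19. GLE replicate 2 was the lowest and GLE replicate 3 the highest array for miR-1982-5p, while in miR-6385 model replicate 2 was the highest. miR-6392-3p, in Pnpla3, a lipid droplet enzyme of the liver, read −3.0, −3.22 and −2.89 against −2.92, −2.37 and −3.14, and miR-6391, in the transporter gene Abcc4, read −2.41, −3.13 and −2.03 against −2.67, −2.40 and −2.45. The groups overlapped in all of these, and the differences were −0.09 ± 0.20 for miR-6385, 0.30 ± 0.34 for miR-1982-5p, −0.23 ± 0.24 for miR-6392-3p and −0.02 ± 0.29 for miR-6391 (SE), none past the threshold.

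Detection was uneven over the number range. Among blocks of the numbering, the share detected was 20.5% of 83 below miR-2000, 2 of 5 (40%) from miR-2000 to miR-2999 and 16.5% of 115 from miR-3000 to miR-3199. It was 18 of 38 (47.4%) from miR-3200 to miR-3999, 13 of 38 (34.2%) from miR-4000 to miR-5199 and 2 of 29 (6.90%) from miR-5200 to miR-5999. From miR-6000 to miR-6499 it was 16.7% of 96, and above that 4 of 15 (26.7%). Both arms of miR-3065 and all entries of miR-3074, which lie opposite miR-338 and miR-24, were detected on 0 arrays.

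For the series as a whole, 378 to 458 miRNAs were detected per array. Their number and the signal percentile did not separate the groups (two-sided exact permutation p = 0.6 and 0.7, with 0.1 the smallest 3 against 3 arrays can give). Between 73 and 85 of the members were detected per array. The arrays shared 1 slide and 1 scan date, with GLE in slide row 1 and model in row 2, so that row and group cannot be told apart. The GLE and model arrays of each replicate number shared a slide column. Of 22 cell type markers, 21 were detected. miR-122-5p, the defining miRNA of hepatocytes, was detected on only 2 arrays, 1 in each group, and miR-200c-3p, an epithelial marker, on 0. Of the same family, miR-200a-3p, miR-200b-3p and miR-429-3p were tested, and each was highest on GLE replicate 2. miR-200b-3p read 0.90, 2.37 and −0.41 in GLE and 2.05, 1.63 and 1.06 in model tumours.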

How the data were processed

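Tumour RNA of 6 mice, 1 array each, was measured on 1-colour Agilent miRNA arrays. The deposited scanner files hold, per the file headers, background-subtracted intensity on a linear scale, made with Agilent Feature Extraction (10.7.1.1, per the submitters' processing notes). The authors also deposited log2 values per miRNA, whose calculation the sources used here do not give, and detection and outlier flags stand in the deposited files. Their scale was taken to be log2 from the values, and their centring is unknown. They served as an alternative.

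Control and outlier-flagged spots were left out, spots of a probe averaged, and arrays scaled, floored and log2-transformed as the report states. The level of a member is the mean over its probes detected on at least 1 array. For the test, only probes detected on every array of at least 1 group were averaged, so a tested value can exceed that level. GLE and model were compared with limma 3.58.1 in R 4.3.3 (lmFit, eBayes; two-sided tests), and p-values were adjusted over 388 miRNAs by Benjamini-Hochberg. The code was tested on simulated data. The number of arrays limits the precision.

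Members and lists were chosen with earlier results of these data known. Named are the 10 brightest members, the 5 of smallest p in each direction, listed families, members sharing a seed, the 3 entries on each side of the detection rule and the 3 of largest SD within a group. Any others are marked where named, or described as an arm, region, probe or detection case. miR-1839-3p, miR-1897-5p, miR-1949, miR-1966-5p, miR-1971, miR-3470a, miR-3960, miR-5099, miR-5107-5p, miR-5112, miR-5620-3p, miR-6360, miR-6378 and miR-6407 have no printed sequence. The labels number replicates 1 to 3 in each group. They state no pairing, so the numbers were not taken as pairs in the main fit, and a replicate block served as an alternative. Same-numbered arrays, which shared a slide column, deviated from their group means with correlations of −0.62, −0.18 and 0.37.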

Additional observations from a re-analysis of the deposited data

How the results depend on the processing

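Members past the threshold numbered 0 under all 11 alternatives and with each array left out. Over all miRNAs the count ran from 0 to 2, with 2 without GLE replicate 2. With the replicate block it was 0, and the block changed no call. The slide or scan block was not run, since 1 slide and 1 scan held all arrays. The count of positive members ran from 19 to 43 and their median difference from −0.12 to 0.08 with an array left out. The members' median signal was 2.28 with the percentile over all probes, 5.04 unscaled, −1.75 with normexp and −2.71 with the brightest probe alone. GLE replicate 2 was lowest in 22 members with the percentile over all probes and in 3 unscaled, a count added after seeing the data.

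The signs of 42 of the tested members named were followed through the other settings. Those of miR-1897-3p, miR-3965, miR-5131 and the arms of miR-3058 and miR-3620 were not. Of the 42, 32 kept their sign in all alternatives that use 6 arrays and 15 also with each array left out. The signs of the others among the 42 turned. With the percentile over all probes, the difference was −0.0624 for miR-1892, −0.0810 for miR-3473e and −0.0133 for miR-5126. With quantile normalisation, the difference was −0.0604 for miR-1892, −0.00424 for miR-3072-5p, −0.10 for miR-3473e and −0.0101 for miR-5126. Unscaled, the difference was 0.00161 for miR-1906, 0.00311 for miR-3473f, 0.0300 for miR-3473g, 0.0290 for miR-6368 and 0.0582 for miR-6391. With normexp, the difference was −0.0251 for miR-3473e and 0.0106 for miR-5099. With outlier spots kept, the difference was −0.0110 for miR-3473e. With the brightest probe alone, the difference was −0.000180 for miR-1892 and 0.000849 for miR-6368. With the deposited values, the difference was −0.0865 for miR-1892 and −0.0530 for miR-3473e. Leaving out 1 array at a time, the differences ran from −0.44 to 0.0339 for miR-1839-3p, −0.34 to 0.50 for miR-1892, −0.27 to 0.82 for miR-1897-5p, −0.23 to 0.0175 for miR-1906, −0.56 to 0.00188 for miR-1949, −0.0416 to 0.65 for miR-1982-5p and −0.39 to 0.0286 for miR-3069-3p. They ran from −0.11 to 0.29 for miR-3072-5p, −0.0100 to 1.00 for miR-3082-5p, −0.0264 to 0.44 for miR-3102-5p, −0.0409 to 0.38 for miR-3470a, −0.0602 to 0.0792 for miR-3473e, −0.14 to 0.0453 for miR-3473f and −0.0990 to 0.000369 for miR-3473g. Further ranges were −0.22 to 0.0575 for miR-3547-5p, −0.25 to 0.00168 for miR-3960, −0.41 to 0.00609 for miR-3968, −0.74 to 0.57 for miR-5099, −0.19 to 0.32 for miR-5126, −0.0440 to 0.44 for miR-5128 and −0.17 to 0.62 for miR-5622-3p. The last were −0.14 to 0.0466 for miR-6368, −0.19 to 0.0503 for miR-6385, −0.26 to 0.29 for miR-6391, −0.44 to 0.0240 for miR-6412, −0.75 to 0.00146 for miR-6516-3p and −0.30 to 0.0973 for miR-6769b-5p. The causes were not tested. Signals near the floor limit what the dim members can show.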
